A study of Homo sapiens with 2 samples.

Results

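The TFDP1 and GSTK1 expressing subpopulation of Nalm-6 made up 277 of 2267 kept cells (12.2%, 95% interval 10.9 to 13.6) in the library induced to express ETV6-RUNX1, and 464 of 1870 kept cells (24.8%, 22.9 to 26.8) in the LUC control library. Its members, 741 of 4137 kept cells in all, were the cells with at least 2 unique molecular identifiers (UMIs) summed over the 4 marker genes TFDP1, GSTK1, CYSTM1 and ATPAF1. Barcodes were kept when at least 1000 genes had a UMI and mitochondrially encoded genes took no more than 10% of UMIs. They were set against the kept cells with 0 UMIs of the 4 genes (zero cells), of which there were 1843 with ETV6-RUNX1 and 1246 in the control. Cells with exactly 1 such UMI, 147 with ETV6-RUNX1 and 160 in the control, belonged to neither group.

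Nalm-6 is an established human line of B-cell precursor acute lymphoblastic leukemia. Both cultures carried a doxycycline-inducible (Tet-On) construct, coding for the ETV6-RUNX1 fusion in one and for luciferase (LUC control) in the other. Both were given 500 ng/ml doxycycline for 24 h, so the drug was common to them, and dead cells were removed with beads before droplet capture on the 10X system. Each construct was represented by 1 library, the cells were of a single line, and the labels do not say whether they were clonal. No difference below therefore has a replicate check. Intervals of ratios and shares cover counting error only, and leave out the spread between cells, cultures and library preparations.

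TFDP1 encodes DP1, the partner that E2F transcription factors need to bind DNA at promoters of cell-cycle genes. GSTK1 encodes the kappa-class glutathione transferase of mitochondria and peroxisomes, and ATPAF1 an assembly factor for the catalytic head of mitochondrial ATP synthase. CYSTM1 encodes a small cysteine-rich membrane protein. The 4 genes lie on chromosomes 13, 7, 1 and 5 in the order TFDP1, GSTK1, ATPAF1 and CYSTM1, so they are not neighbours in the genome.

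The promoters of the marker genes with a single listed start are shown with those of BLVRA and ROR2, because BLVRA had the highest and ROR2, among protein-coding genes, the lowest ratio of members over zero cells, ranked by the smaller ratio of both libraries. Each run is 300 bases of the gene's own strand, from 250 before to 50 after the start, from RefSeq on GRCh38.p14 (the counts themselves were made on hg19). CG dinucleotides are in capitals.
TFDP1: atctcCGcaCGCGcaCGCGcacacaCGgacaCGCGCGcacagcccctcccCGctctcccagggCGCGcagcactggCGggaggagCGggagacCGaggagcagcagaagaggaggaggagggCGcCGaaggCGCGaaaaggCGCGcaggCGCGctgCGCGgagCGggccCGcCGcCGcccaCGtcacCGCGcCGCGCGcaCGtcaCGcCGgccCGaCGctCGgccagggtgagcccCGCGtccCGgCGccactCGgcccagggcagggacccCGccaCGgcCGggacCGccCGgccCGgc
GSTK1: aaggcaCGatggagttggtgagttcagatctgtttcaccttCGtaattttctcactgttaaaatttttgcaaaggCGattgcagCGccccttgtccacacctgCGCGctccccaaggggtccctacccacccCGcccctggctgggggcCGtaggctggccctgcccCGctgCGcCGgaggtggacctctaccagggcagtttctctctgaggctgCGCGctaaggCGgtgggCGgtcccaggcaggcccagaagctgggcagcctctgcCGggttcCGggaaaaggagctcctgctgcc
CYSTM1: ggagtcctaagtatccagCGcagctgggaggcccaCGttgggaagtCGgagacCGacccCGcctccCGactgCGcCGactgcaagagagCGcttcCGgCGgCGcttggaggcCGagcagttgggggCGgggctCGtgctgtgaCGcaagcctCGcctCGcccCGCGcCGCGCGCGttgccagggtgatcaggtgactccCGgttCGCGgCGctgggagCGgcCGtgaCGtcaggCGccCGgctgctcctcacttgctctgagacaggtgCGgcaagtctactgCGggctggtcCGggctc
BLVRA: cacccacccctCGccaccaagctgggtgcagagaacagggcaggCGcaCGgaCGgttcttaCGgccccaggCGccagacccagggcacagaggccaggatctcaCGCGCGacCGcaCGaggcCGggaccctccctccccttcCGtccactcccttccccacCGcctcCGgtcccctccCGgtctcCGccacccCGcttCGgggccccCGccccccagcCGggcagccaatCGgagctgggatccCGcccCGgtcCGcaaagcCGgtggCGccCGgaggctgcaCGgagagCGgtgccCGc
ROR2: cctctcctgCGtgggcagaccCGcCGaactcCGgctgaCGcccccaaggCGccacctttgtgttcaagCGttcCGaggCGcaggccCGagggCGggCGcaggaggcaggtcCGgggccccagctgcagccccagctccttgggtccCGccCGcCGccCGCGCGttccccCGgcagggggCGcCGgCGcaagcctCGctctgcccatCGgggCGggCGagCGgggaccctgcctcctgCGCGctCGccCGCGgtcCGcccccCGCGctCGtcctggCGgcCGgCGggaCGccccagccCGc

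These windows are chr13:113584503-113584802 (plus strand) for TFDP1, chr7:143263191-143263490 (plus) for GSTK1, chr5:140174938-140175237 (plus) for CYSTM1, chr7:43758430-43758729 (plus) for BLVRA and chr9:91950179-91950478 (minus) for ROR2. All 4 marker genes had an entry among 35116 windows, but ATPAF1 had 4 alternative starts and is not printed. The TFDP1 window held 52 CG dinucleotides, a number reached by 0.780% of all windows, against a median of 14. CYSTM1 held 36 (reached by 12.7% of windows) and GSTK1 17 (46.0%), so the marker promoters shown did not have a CG content in common. ROR2 held 42 (5.85%) and BLVRA 31 (20.7%). The letters GGGCGG, on either strand, stood 2 times in the TFDP1, GSTK1 and BLVRA windows, 1 time in that of CYSTM1 and 5 times in that of ROR2, and at least 1 time in 45.0% of all windows. These are matches of letters, not binding sites.

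The kept cells held 43941536 UMIs with ETV6-RUNX1 and 42762188 in the control. Members were not the deeper cells: their median was 18349 UMIs and 3179 genes with ETV6-RUNX1, against 19587 UMIs and 3287 genes in zero cells. In the control library they had a median of 21330 UMIs and 3582 genes, against 23337 UMIs and 3678 genes in zero cells. Mitochondrially encoded genes took a median of 4.41% of UMIs in ETV6-RUNX1 members, 4.53% in ETV6-RUNX1 zero cells, 4.29% in control members and 4.38% in control zero cells. The libraries shared 7 cell barcodes among kept cells. Doublets were left in.

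**Figure D1:**
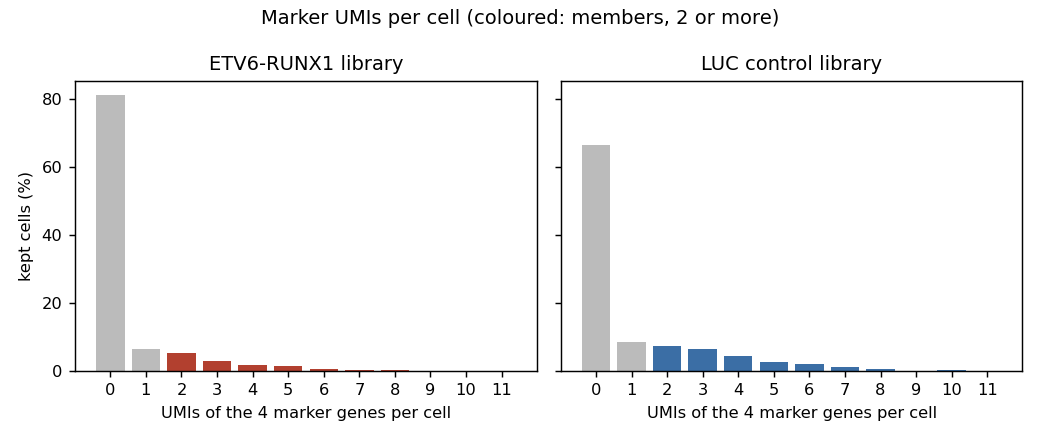
Share of kept cells (%) by the number of UMIs of the 4 marker genes per cell, ETV6-RUNX1 library on the left and LUC control library on the right, with members (2 or more UMIs) coloured and the other cells grey. Cells with 0 UMIs were 81.3% of the ETV6-RUNX1 library and 66.6% of the control library, and the counts per cell reached 8 and 11.

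The 4 marker genes chose the cells, so their levels in members are a description. TFDP1 (ENSG00000198176) reached 79.7 CPM (UMIs per 1000000 of the group's total) in ETV6-RUNX1 members and 79.2 CPM in control members. GSTK1 (ENSG00000197448) had 41.1 and 35.2 CPM, CYSTM1 (ENSG00000120306) 29.9 and 27.0 CPM and ATPAF1 (ENSG00000123472) 23.6 and 25.5 CPM in the members of the ETV6-RUNX1 and control libraries. TFDP1 was detected in 79.8% of ETV6-RUNX1 members and 84.7% of control members, and ATPAF1, the least often detected, in 37.2% of ETV6-RUNX1 members. The plot of marker UMIs per cell has no second peak above 0. Just inside the threshold lay 118 ETV6-RUNX1 and 135 control cells with exactly 2 UMIs, and just outside it the 147 and 160 cells with 1.

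The label was examined by asking whether each marker was found in cells chosen by the other 3. All 4 genes were more frequent in such cells. After thinning each cell to 8700 UMIs, TFDP1 was detected in 18 of 51 ETV6-RUNX1 cells with at least 2 UMIs of the other 3 genes (35.3%, 22.4 to 49.9), against 94 of 1840 cells with 0 of them (5.11%, 4.15 to 6.22). In the control it was detected in 33 of 95 such cells (34.7%, 25.3 to 45.2), against 128 of 1493 (8.57%, 7.20 to 10.1). GSTK1 was in 17.6% against 2.73% with ETV6-RUNX1 and in 24.0% against 4.01% in the control. CYSTM1 was in 19.0% against 1.69% and in 16.9% against 3.47%, and ATPAF1 in 15.9% against 1.63% and in 15.7% against 2.64%, in the same order. In unthinned cells, where the median depth was 19147 UMIs in cells with the other 3 genes and 19366 UMIs in cells without, TFDP1 was in 60.3% against 4.80% with ETV6-RUNX1. The control values were 73.8% against 8.72%, at median depths of 22087 and 22940 UMIs. These counts come from the same 4 genes that chose the members, so they describe the choice and support nothing beyond it.

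TFDP1 varied between cells more than most genes of its level. Its variance over its mean in thinned cells was 1.38 with ETV6-RUNX1 and 1.57 in the control, at the 99.7 percentile of 3649 and 3253 genes of similar mean (medians 1.02 and 1.02). ATPAF1 varied least of the 4, at 1.05 (82.7 percentile) and 1.16 (98.7 percentile). Across thinned cells, Pearson correlations between pairs of markers were weak, from 0.09 to 0.24 with ETV6-RUNX1 and from 0.09 to 0.16 in the control. They cover 2043 and 1786 cells that share their library. In unthinned cells, which hold more UMIs and differ in depth, the correlations ran from 0.25 to 0.36 and from 0.26 to 0.37. The members were chosen by these genes, with earlier results of these data known, so all these values describe the choice.

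Members also gathered by their other genes. When all kept cells were clustered on 2000 variable autosomal genes without the 4 markers, cluster 3 of 5 held 149 of the 277 ETV6-RUNX1 members (53.8%) and 265 of the 464 control members (57.1%). It held 2.33% of ETV6-RUNX1 zero cells and 2.65% of control zero cells. Members were 63.7% of its 234 ETV6-RUNX1 cells and 77.0% of its 344 control cells. The largest cluster, number 0, held 14 members among 934 ETV6-RUNX1 cells and 20 among 682 control cells. The remaining members were spread over the other 4 clusters, so the rule and the cluster mark overlapping but not identical sets of cells.

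From shallow to deep cells, the share of members first rose and then fell in both libraries. Over 5 bins of kept cells by their UMIs, from shallow to deep, members were 11.9%, 15.4%, 14.3%, 9.98% and 7.83% of ETV6-RUNX1 cells. In the control they were 17.1%, 33.7%, 30.2%, 26.1% and 17.3%. The ETV6-RUNX1 share was below the control share in all 5 bins. With every cell thinned to 8700 UMIs, members were 6.36% with ETV6-RUNX1 and 11.9% in the control. Whether the lower share came from the construct or from the cultures cannot be told apart with 1 library of each.

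Cell-cycle calls of members lay close to those of zero cells. In thinned ETV6-RUNX1 cells, 12.8% of members and 12.4% of zero cells were called G1, 47.7% and 48.4% S, and 39.5% and 39.2% G2/M. In the control, 7.06% of members and 6.32% of zero cells were called G1, 49.0% and 48.0% S, and 43.9% and 45.7% G2/M. The members' 95% intervals held the zero cells' value for each phase in both libraries, for instance 33.5 to 45.8% for G2/M in ETV6-RUNX1 members. Like calls do not mean like levels of the genes behind them. S-phase and G2/M genes both had median log2 ratios of members over zero cells of 0.25 with ETV6-RUNX1. In the control they had 0.21 and 0.20, while the medians over all measured genes were 0.06 with ETV6-RUNX1 and 0.07 in the control.

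Across 6058 autosomal genes at 10 CPM or more in at least 1 of the 4 groups, without the 4 markers, 429 (7.08%) were higher in members than in zero cells in both libraries. A further 244 (4.03%) were lower in both. Here and below, a gene is called higher at a log2 ratio of 0.32 or more and lower at -0.32 or less. At the larger size of 1.5-fold, 119 were higher (1.96%) and 78 lower (1.29%) in both. In the ETV6-RUNX1 library alone 814 were higher (13.4%) and 487 lower (8.04%). In the control library alone 698 were higher (11.5%) and 396 lower (6.54%). The 429 genes were 52.7% of those higher with ETV6-RUNX1 and 61.5% of those higher in the control, and 7 genes passed these sizes in opposite directions. The median log2 ratio over all measured genes was 0.06 with ETV6-RUNX1 and 0.07 in the control. Another scaling, edgeR's TMM, moved that median to 0.01 in both and the counts to 313 higher and 323 lower.

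**Figure D2:**
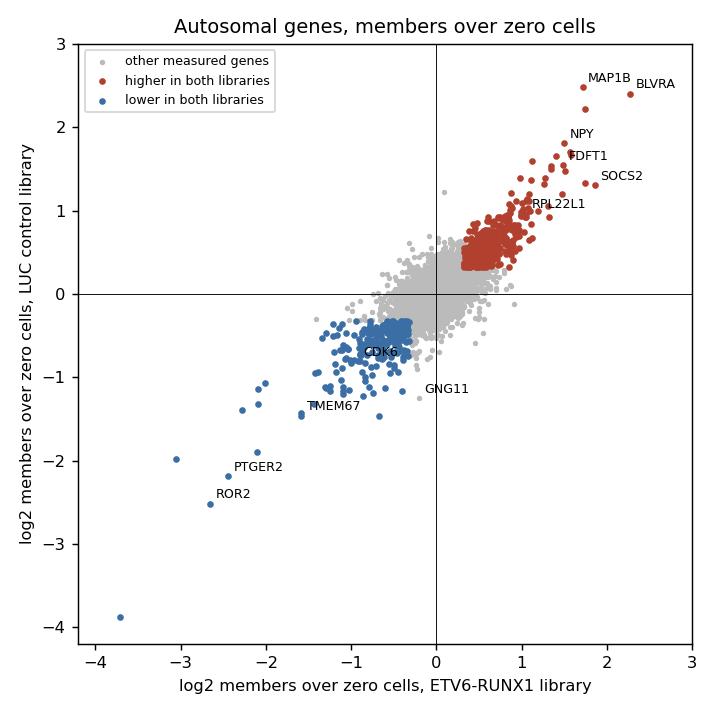
Each point is 1 of 6058 measured autosomal genes, with the log2 ratio of members over zero cells in the ETV6-RUNX1 library on the x axis and in the LUC control library on the y axis. The 429 genes at or above 0.32 in both libraries are red and the 244 lower in both are blue; BLVRA lies at 2.28 and 2.40, and ROR2 at -2.65 and -2.52.

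BLVRA (ENSG00000106605), the reductase that turns biliverdin into bilirubin, had the highest ratio by the lower of its libraries. It was at 13.8 CPM in ETV6-RUNX1 members, against 2.84 CPM in zero cells, a log2 ratio of 2.28 (1.82 to 2.73). In the control it was at 13.4 CPM in members, against 2.53 CPM in zero cells, 2.40 (1.99 to 2.83). WIPI1, a phosphoinositide-binding protein of autophagy, had ratios of 1.74 and 2.22, and MAP1B, a microtubule-associated protein, 1.71 and 2.48. NPY, a secreted neuropeptide, was at 43.2 against 15.3 CPM with ETV6-RUNX1 and at 73.7 against 21.1 CPM in the control, for ratios of 1.5 and 1.81. SOCS2, a feedback inhibitor of cytokine receptor signalling, was at 140 against 38.6 CPM with ETV6-RUNX1 and at 86.4 against 35.0 CPM in the control.

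The other genes at the top of the ranking served different roles. CD52, a small surface glycoprotein of lymphocytes, had log2 ratios of 1.34 and 1.5, SPINT2, an inhibitor of serine proteases, 1.40 and 1.66, and TUBA4A, an alpha tubulin, 1.35 and 1.54. PLXND1, a semaphorin receptor, had 1.51 and 1.47, CPNE3, a calcium-dependent lipid-binding protein, 1.27 and 1.39, and CTNNAL1, a relative of alpha catenin, 1.27 and 1.32. The long non-coding RNA LINC00163 had 1.57 and 1.66 and TEX30 1.57 and 1.70. FDFT1 and ZEB1 belong to the groups described next.

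Among lists with at least 5 measured genes, cholesterol synthesis had the largest share of higher ones. This pathway builds sterols from acetyl-CoA, and its genes are switched on together by SREBP2. Of 20 measured members of the list, 13 were higher in both libraries and 1 was lower (all measured genes, 7.08% higher and 4.03% lower). The list's median log2 ratios were 0.51 with ETV6-RUNX1 and 0.59 in the control (all genes, 0.06 and 0.07). FDFT1 (ENSG00000079459), squalene synthase, was at 132 CPM in ETV6-RUNX1 members against 47.2 CPM in zero cells, and at 141 against 48.2 CPM in the control. Its log2 ratios were 1.49 (1.36 to 1.62) and 1.54 (1.44 to 1.65), above those of its neighbours in the pathway. SQLE, the next enzyme, had 0.97 and 0.55. Earlier steps had lower ratios, with HMGCS1 at 0.56 and 0.69, MVK at 0.50 and 0.64, IDI1 at 0.54 and 0.65, and FDPS at 0.42 and 0.50.

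Of the steps after squalene, DHCR7 (0.89 and 0.83), MSMO1 (0.82 and 0.63) and SC5D (0.52 and 0.40) were higher too. LSS (0.09 and 0.27), TM7SF2 (-0.07 and -0.05) and HSD17B7 (-0.06 and 0.55) were not called. INSIG1, which retains the SREBP complex in the endoplasmic reticulum, was higher (0.81 and 0.79). PMVK, a kinase of the mevalonate steps, was lower, at -0.39 and -0.37. The list's medians were 0.53 and 0.62 with cells matched on depth and 0.43 and 0.53 with cells matched on phase. FDFT1 was lowest in cells with no marker UMI in both libraries. Cells with 0, 1, 2, 3 and 4 or more marker UMIs had 47.2, 89.1, 98.1, 126 and 166 CPM with ETV6-RUNX1, and 48.2, 86.2, 131, 124 and 154 CPM in the control.

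**Figure D3:**
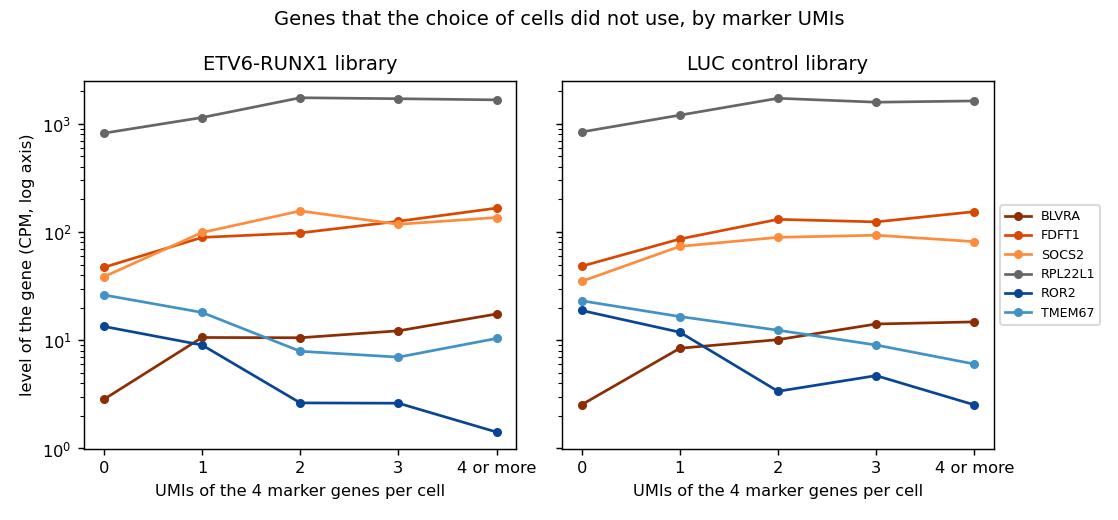
Level (CPM, log axis) of 6 genes that the choice of cells did not use, by the number of marker UMIs per cell, ETV6-RUNX1 library on the left and LUC control library on the right. BLVRA, FDFT1, SOCS2 and RPL22L1 were higher and ROR2 and TMEM67 lower at 2 or more marker UMIs than at 0 in both libraries, and cells with 1 marker UMI lay in between except for BLVRA with ETV6-RUNX1, where they had 10.6 CPM against 10.5 CPM at 2.

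One stretch of chromosome 10 stood out when genes were put in chromosomal order. Of 247 measured genes of chromosome 10, 16.2% were higher in both libraries, against 7.08% of all measured genes. Of these 40 genes, 19 lay together on the short arm. There, all 23 measured genes from NSUN6 to CUL2 had ratios above 0 in both libraries and 4 missed the size in one or both. Their median log2 ratio was 0.69 with ETV6-RUNX1 (0.29 to 1.75) and 0.70 in the control (0.15 to 1.34). The other 224 genes of the chromosome had medians of 0.08 and 0.06, with 21 higher in both. The ends of the stretch were chosen after the values were seen, so its count is a description.

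The stretch held genes of unlike function. BMI1 (ENSG00000168283), a Polycomb subunit known to repress the CDKN2A locus, was at 26.8 CPM in ETV6-RUNX1 members against 15.1 CPM in zero cells, and at 24.0 against 12.4 CPM in the control. ZEB1, a transcriptional repressor, was at 12.4 against 3.70 CPM and at 8.30 against 3.29 CPM. KIF5B, a kinesin heavy chain, was at 131 against 79.8 CPM and at 132 against 69.8 CPM. YME1L1, a mitochondrial protease, had log2 ratios of 0.67 and 0.70, and MLLT10, a partner of leukemia fusions, 0.69 and 0.48. MASTL, a mitotic kinase, had 0.92 and 0.83, and ITGB1, the beta-1 integrin, 0.80 and 0.70. PTPLA, just before NSUN6, was lower (-0.90 and -0.65). Just after CUL2, CREM had 0.29 and 0.27 and CCNY 0.52 and 0.16, which were not called but lay above 0 in both libraries.

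Summed over the 23 genes, cells with 0, 1, 2, 3 and 4 or more marker UMIs had 518, 686, 837, 842 and 836 CPM with ETV6-RUNX1. In the control they had 470, 619, 798, 759 and 796 CPM. The summed level was no higher at 4 or more marker UMIs than at 2 in either library. Of 5640 windows of 20 consecutive measured genes on the 22 autosomes, 27 had a median log2 ratio of at least 0.32 in both libraries, and all 27 were on chromosome 10. The highest, from MLLT10 to ITGB1, had medians of 0.70 and 0.72. The highest window of any other chromosome by the lower of its libraries, on chromosome 11, had 0.31 and 0.26. DNA copy number was not measured here, and its part in these values was not tested.

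**Figure D4:**
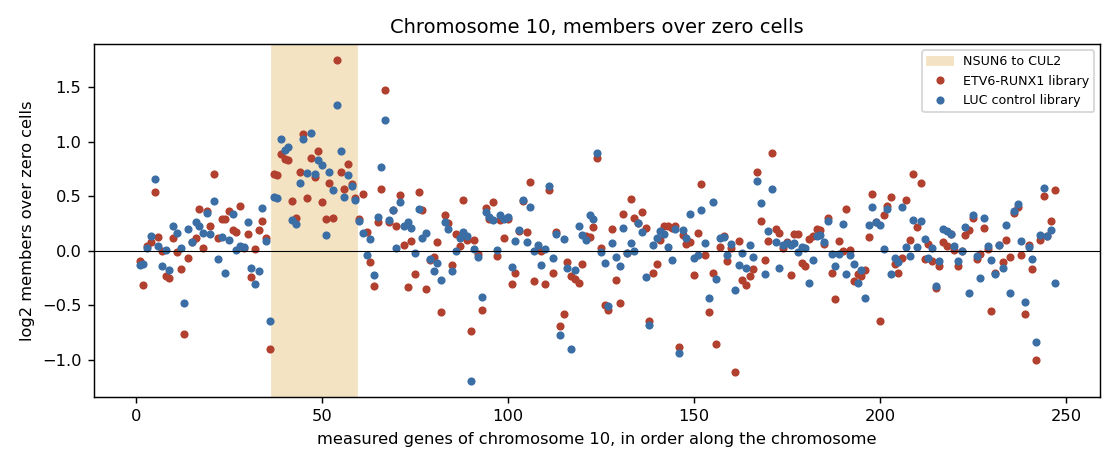
Log2 ratio of members over zero cells for the 247 measured genes of chromosome 10 in their order along the chromosome, with the 23 genes from NSUN6 to CUL2 shaded. Red points are the ETV6-RUNX1 library and blue points the LUC control library; within the shaded stretch all points lie above 0, with medians of 0.69 and 0.70, and outside it the medians are 0.08 and 0.06.

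The neighbourhoods of the marker genes showed no such run. Among the nearest measured genes on both sides, 1 of 13 was higher in both libraries around TFDP1 (CHAMP1), 2 of 20 around GSTK1 (EZH2 and CDK5), 3 of 20 around CYSTM1 (EGR1, CTNNA1 and IK) and 2 of 20 around ATPAF1 (PIK3R3 and CDKN2C), and 0 were lower. Over all measured genes, 7.08% were higher and 4.03% lower, and counts in so few genes do not tell these neighbourhoods from the rest. The median ratios of the neighbourhoods were 0.16 and 0.22, 0.11 and 0.06, 0.14 and 0.15, and 0.15 and 0.07, with ETV6-RUNX1 first in each pair.

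Ribosomal protein genes had small ratios, apart from paralogues of the main genes. RPL22L1 (ENSG00000163584), a paralogue of the ribosomal protein RPL22, was at 1700.1 CPM in ETV6-RUNX1 members against 819 CPM in zero cells, and at 1639 against 840 CPM in the control. These were log2 ratios of 1.05 (1.02 to 1.09) and 0.96 (0.94 to 0.99). RPL22 itself had -0.28 and -0.29, and RPL39L, a paralogue of RPL39, was lower at -0.75 and -0.98. Over 78 measured ribosomal protein genes, 1 was higher and 1 was lower, against 7.08% and 4.03% of all measured genes. The medians were -0.10 and -0.12, with 7 above 0 with ETV6-RUNX1 and 10 in the control. Ribosomal protein genes have paralogues and many processed copies of like sequence, between which reads may be split, so single values are uncertain.

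Their summed level was lower in members, at 392909 CPM against 417838 CPM with ETV6-RUNX1 and 377795 against 407381 CPM in the control. Since these genes take so many of the UMIs, totals counted without them and without mitochondrially encoded genes gave 340 genes higher and 574 lower in both libraries. Genes for ribosome biogenesis and MYC gave 0 of 48 called in both libraries in either direction, with medians of -0.02 and 0.04. With the full totals used here, 7.08% of all measured genes were higher and 4.03% lower.

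The partners of TFDP1 among cell-cycle regulators were counted first. Of 9 measured genes for E2F factors, DP proteins and pocket proteins other than TFDP1, 0 were higher in both libraries and 2 were lower. With 7.08% of all genes higher, a count of 0 in so few genes shows no difference from the rest in that direction. Of all genes 4.03% were lower. The list's medians were -0.08 with ETV6-RUNX1 and -0.04 in the control, against 0.06 and 0.07 over all genes. E2F8 (0.44 and 0.29) and E2F6 (0.10 and 0.12) lay above 0 in both libraries. E2F1 was at 53.7 CPM in ETV6-RUNX1 members against 70.8 CPM in zero cells, and at 37.2 against 62.7 CPM in the control. TFDP2, the gene for the other DP protein, was at 54.9 against 70.3 CPM and at 49.2 against 62.2 CPM. S-phase genes had 10 of 37 higher and 1 lower (medians 0.25 and 0.21), among them CCNE2 (0.79 and 0.75), the gene for cyclin E2, CLSPN (0.58 and 0.53), a checkpoint adaptor, and PCNA (0.56 and 0.47), the polymerase clamp. UNG, a uracil glycosylase, was the lower gene, at -0.54 and -0.49. G2/M genes had 14 of 51 higher and 0 lower (medians 0.25 and 0.20), with FAM64A at 0.58 and 0.76, HN1 at 0.50 and 0.53, and CDK1, the mitotic kinase, at 0.54 and 0.39.

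CDK6, the kinase that drives G1 with D-type cyclins, was lower in members, at 83.4 against 158 CPM with ETV6-RUNX1 and at 97.0 against 170 CPM in the control. AC002454.1, an RNA transcribed from the opposite strand beside CDK6, was lower as well, at 24.0 against 72.4 CPM and at 27.4 against 74.1 CPM. These genes overlap at their starts, and whether counting used strand is not stated in the sources used here, so their reads may not be fully separate. Among CDK inhibitor genes, CDKN2D (p19) was higher at 0.94 and 0.68 and CDKN2C (p18) at 0.67 and 0.71, while CDKN1A (p21) had -0.39 and -0.20 and was not called.

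Redox genes, the class to which GSTK1 belongs, had 5 of 26 higher and 1 lower, with medians of 0.15 and 0.14. Among all measured genes, 7.08% were higher and 4.03% lower in both libraries. GPX7, a peroxidase of the endoplasmic reticulum, had 0.70 and 0.83, CAT, catalase, 0.66 and 0.45, and MGST2, a microsomal glutathione transferase, 0.57 and 0.65. GSR, glutathione reductase, had 0.39 and 0.36, and MGST3 0.36 and 0.48. GSTP1, the pi-class transferase, was lower at -0.43 and -0.36. ATP synthase subunits and assembly factors other than ATPAF1 gave 0 of 20 called in both libraries, with medians of 0.04 and 0.04. Respiratory complexes gave 2 of 55, UQCRC2 (0.37 and 0.39) and NDUFC2. NDUFC2, a subunit of complex I, was at 289 against 168 CPM with ETV6-RUNX1 and at 307 against 180 CPM in the control. Peroxisome genes gave 1 of 15 higher, IDH1, and 1 lower, PMVK.

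B-lineage genes were divided. Markers of the pre-B identity of the line were present in members: CD79B was at 633 CPM with ETV6-RUNX1 and 555 CPM in the control, VPREB1 at 586 and 946 CPM, IGLL1 at 1356 and 2229 CPM, CD79A at 105 and 187 CPM, and PAX5 at 99.6 and 89.7 CPM. None of these 5 was called against zero cells in both libraries. V(D)J recombination genes had 4 of 12 higher and 0 lower (all measured genes, 7.08% higher and 4.03% lower). DNTT, which adds bases at the joints, was at 526 against 345 CPM with ETV6-RUNX1 and at 386 against 298 CPM in the control. RAG1 and RAG2, the recombinase, had 0.53 and 0.41, and 0.39 and 0.34. HMGB2, a DNA-bending cofactor, had 0.42 and 0.41. The list of pre-B receptor and proximal signalling genes had 2 of 18 higher, PTPRCAP and VPREB3, and 2 lower, CD81 and PIK3AP1. Among 27 B-lineage transcription factor genes, 3 were higher, ELK3, ID3 and ERG, and 4 were lower, IKZF2, AFF3, RUNX1 and SOX4. RUNX1 had log2 ratios of -0.37 and -0.40, and IKZF2, the gene for Helios, -1.30 and -1.12.

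Surface molecules included CD9, a tetraspanin, at 808 against 470 CPM with ETV6-RUNX1 and at 719 against 432 CPM in the control. CD38, an ectoenzyme of lymphoid precursors, was lower at -0.71 and -0.40. Of 11 surface antigen genes, CD9 and CD52 were higher and CD38 and SPN lower (all measured genes, 7.08% higher and 4.03% lower). MHC class I genes had 4 of 17 higher, among them NLRC5, their transcriptional activator, at 0.62 and 0.50, HLA-B at 0.45 and 0.41, and PSMB9, an immunoproteasome subunit, at 0.47 and 0.40. The medians of the list were 0.28 and 0.27. MHC class II genes had 0 of 13 higher and 1 lower, CIITA (-0.39 and -0.54), the activator of that class, with an interval in the ETV6-RUNX1 library that held 0.

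Genes of cell death were split as well. BAX, a pro-apoptotic effector, was at 93.8 against 54.8 CPM with ETV6-RUNX1 and at 107 against 57.6 CPM in the control. BCL2, the pro-survival gene, was lower at -0.90 and -0.80, and BIK, a BH3-only gene, at -0.75 and -0.61. Of 12 measured p53 target genes, BAX and BTG2 were higher and XPC, DDB2 and ZMAT3 were lower. The shares over all measured genes were 7.08% higher and 4.03% lower. Immediate-early and heat-shock genes had 5 of 21 higher and 1 lower, with EGR1, a growth-factor-induced transcription factor, at 1.11 and 0.84, IER2 at 0.80 and 0.59, ZFP36, a decay factor of messenger RNA, at 0.66 and 0.58, and the chaperones HSP90AA1 and HSPB1. FOSB was lower, at -0.38 and -0.39.

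Among metabolic genes, ALDOC, the brain-type aldolase, was higher (1.05 and 1.11) and HK2, a hexokinase, lower (-1.19 and -0.84), of 21 measured glycolysis and hypoxia genes. Proteasome subunits had 4 of 28 higher, PSMC3, PSMC6, PSMC2 and PSMD13, and 0 lower. They were led by PSMC3, a base ATPase, at 150 against 94.6 CPM with ETV6-RUNX1 and at 165 against 92.9 CPM in the control. Of 34 unfolded protein and integrated stress response genes 0 were higher and 2 were lower, CEBPB (-0.55 and -0.68) and SLC7A5 (-0.52 and -0.40). Interferon-stimulated genes had 3 of 13 higher, LGALS3BP, BST2 and IFI35, histone genes 2 of 15, H3F3A and HIST1H1C, and adhesion genes 2 of 10, ITGB2 and ITGB1. These shares are to be read against the 7.08% higher and 4.03% lower among all measured genes.

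The lowest ratio belonged to RP11-11N9.4 (ENSG00000247134), a transcript listed under its clone name. It was at 1.55 CPM in ETV6-RUNX1 members against 20.3 CPM in zero cells, and at 1.26 against 18.5 CPM in the control, for log2 ratios of -3.71 (-4.93 to -2.73) and -3.88 (-4.80 to -3.09). The members' values rest on 8 and 13 UMIs. ROR2 (ENSG00000169071), a receptor for WNT5A, was at 2.13 against 13.4 CPM and at 3.28 against 18.8 CPM. It was at 2.64, 2.62 and 1.42 CPM in ETV6-RUNX1 cells with 2, 3 and 4 or more marker UMIs, and at 3.38, 4.71 and 2.53 CPM in such control cells. At every number of marker UMIs from 2 upwards, ROR2 was below its level in the zero cells of the same library.

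The other low genes had varied roles. PTGER2, a prostaglandin E2 receptor, had log2 ratios of -2.44 and -2.19, PDGFA, a growth factor, -3.05 and -1.98, and VGF, a neuropeptide precursor, -2.09 and -1.32. PDGFA in ETV6-RUNX1 members rests on 3 UMIs. TMEM67, a protein of the ciliary transition zone, was at 8.72 against 26.2 CPM with ETV6-RUNX1 and at 8.40 against 23.1 CPM in the control. UGT3A2, a glycosyltransferase, had -2.10 and -1.90, TMIE, a hair-cell channel subunit, -2.28 and -1.39, FKBP4, a cochaperone of HSP90, -1.25 and -1.16, and GPSM1, a regulator of G-protein signalling, -1.29 and -1.13. DDIT4L had -2.09 and -1.15, AF064858.8 -1.44 and -1.32, and C18orf56 -1.25 and -1.11.

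Many markers of cell types other than B-cell precursors were at 0, while NKG7, CST3, EGFL7, MZB1 and PDGFRA were among those detected. Of 11 T and NK genes 7 had 0 UMIs in all 4 groups, among them CD3D, CD3E and CD8A, and the list summed to 2.91 CPM in ETV6-RUNX1 members, 4.99 in ETV6-RUNX1 zero cells, 5.6 in control members and 6.34 in control zero cells. Erythroid and megakaryocyte genes, 7 of 11 at 0 with HBB among them, summed to 0.582, 0.193, 0.579 and 0.411 CPM in that order. Myeloid genes, 5 of 12 at 0 with S100A8 and S100A9 among them, summed to 13.4, 13.1, 11.2 and 12.6 CPM. Of the stem and progenitor genes 7 of 11 were at 0, and EGFL7 alone made up most of the sum of 26.2, 16.9, 31.2 and 19.0 CPM. EGFL7, an extracellular regulator of vessels, was higher in members, at 0.63 and 0.71.

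Mature B and plasma cell genes summed to 225 CPM in ETV6-RUNX1 members, 290.2 in ETV6-RUNX1 zero cells, 326 in control members and 385 in control zero cells, most of it from MZB1, a chaperone of immunoglobulin assembly. FCRLA, an Fc receptor-like protein of B cells, was lower at -1.34 and -0.53. Epithelial and fibroblast genes, 9 of 12 at 0, summed to 88.6, 65.6, 63.5 and 66.6 CPM, nearly all from PDGFRA.

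Members with ETV6-RUNX1 were then set against control members, beside the same ratio in zero cells. Of 5848 genes measured in members, 325 (5.56%) were higher by the same size with ETV6-RUNX1 and 532 (9.1%) lower. In zero cells, of 5718 genes 97 (1.7%) were higher and 184 (3.22%) lower. There were 57 genes higher in both, 17.5% of those higher in members and 58.8% of those higher in zero cells, and 110 lower in both, 20.7% and 59.8%. Members were 277 and 464 cells against 1843 and 1246, so their ratios carry more counting error. With TMM scaling the members' counts were 405 higher and 407 lower.

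GNG11 (ENSG00000127920), a G-protein gamma subunit, was the highest, at 66.5 CPM in ETV6-RUNX1 members against 20.6 CPM in control members. Its log2 ratio was 1.69 (1.44 to 1.95) in members and 0.64 (0.55 to 0.74) in zero cells, where it was at 76.6 and 49.0 CPM. The intervals of these ratios did not overlap. Seen within libraries, GNG11 was at -0.20 (-0.37 to -0.04) in members over zero cells with ETV6-RUNX1 and at -1.25 (-1.47 to -1.04) in the control. Of the 4 groups, control members had the lowest level, and the difference between the libraries in this ratio has no test.

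Of the other genes higher with ETV6-RUNX1 in members, BCAS4 had 1.07 in members and 0.92 in zero cells, KIAA0226L 0.99 and 0.74, YPEL3 1.27 and 0.64, and DMWD 1.01 and 0.57. HRK, a BH3-only death gene, had 1.18 (0.58 to 1.78) in members and 0.13 (-0.14 to 0.40) in zero cells, on 53 and 47 member UMIs. GCSAM, an adaptor of germinal-centre B cells, had 1.11 and 0.32, C12orf49 0.97 and 0.18, HLA-DMB, a class II peptide loader, 0.88 and 0.35, and PHYH, a peroxisomal hydroxylase of phytanic acid, 0.88 and 0.39. ARHGEF25, a RhoA exchange factor, had 0.94 and 1.19, and C10orf10 0.95 and 0.67. All 12 were above 0 in zero cells too. The 12 were picked by their ratio in members, so the choice itself favours larger values there than in zero cells. C10orf10 had 0.20 in members when the 3 phases had equal weight, in cells of at least 8700 UMIs. Of those members, 33 with ETV6-RUNX1 and 32 in the control were called G1. The cause of the lower value was not tested.

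LAT2 (ENSG00000086730), an adaptor of immune receptors, was the lowest, at 13.4 CPM in ETV6-RUNX1 members against 57.7 CPM in control members. Its log2 ratio was -2.11 (-2.49 to -1.75) in members and -1.79 (-1.93 to -1.65) in zero cells. PTPRCAP, which binds the phosphatase CD45, was at 49.0 against 163 CPM in members (-1.73) and at 36.5 against 91.1 CPM in zero cells (-1.32). RASGRP2, an exchange factor for Rap1, had -1.19 in members and -1.49 in zero cells. The 12 lowest genes were picked by their ratio in members, so the choice itself favours larger differences there than in zero cells. SMAGP had -1.61 (-2.30 to -0.98) in members and -0.47 (-0.79 to -0.16) in zero cells, and MIR181A1HG, host of a microRNA, -1.30 (-1.76 to -0.86) and -0.42 (-0.57 to -0.28). FAM129C had -1.57 and -1.33, RASD1, a Ras-like protein, -1.57 and -0.99, EHD4, of endocytic recycling, -1.48 and -0.55, and SPRY1, an inhibitor of Ras signalling, -1.15 and -0.82. The calcium-binding S100A6 had -1.24 and -0.79 and S100A4 -1.24 and -0.81. NME1-NME2, at -1.40 and -0.87, is a read-through gene that shares its sequence with NME1 and NME2, so its counts are uncertain.

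**Figure D5:**
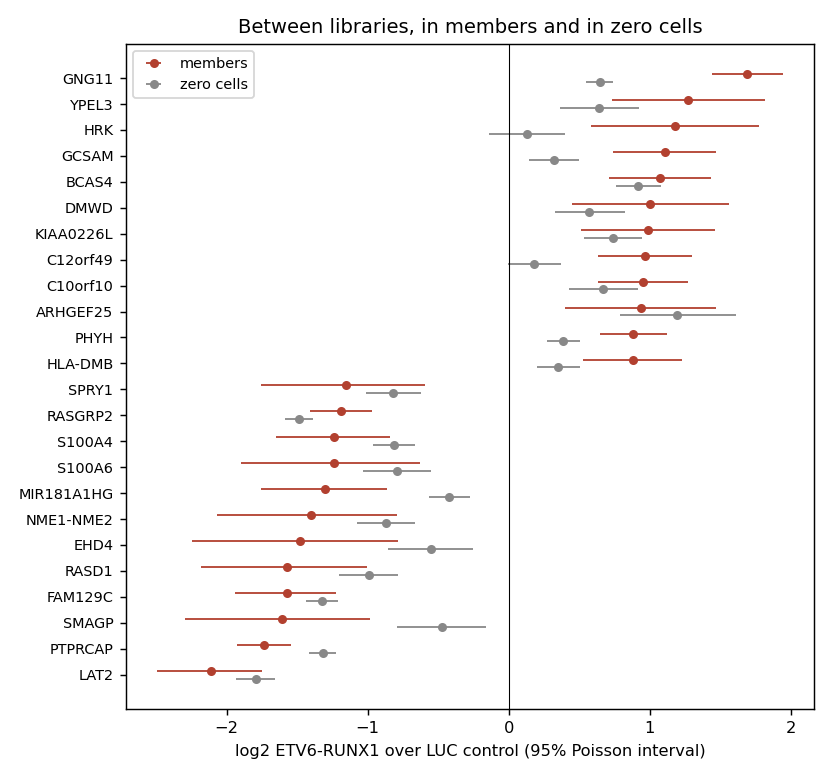
Log2 ratio of ETV6-RUNX1 over LUC control (x axis) for the 12 highest and 12 lowest genes between members, in members (red) and in zero cells (grey), with 95% Poisson intervals that cover counting error only. GNG11 lies at 1.69 in members and 0.64 in zero cells, and LAT2 at -2.11 and -1.79.

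Whole-library differences in the marker genes were larger than differences between members. Over all kept cells TFDP1 was at 10.6 CPM with ETV6-RUNX1 against 20.4 CPM in the control, a log2 ratio of -0.94 (-1.11 to -0.78). In cells chosen by the other 3 markers, which TFDP1 did not help to choose, it was at 56.6 against 65.0 CPM, -0.20 (-0.47 to 0.07). The same held for GSTK1, with -0.83 (-1.06 to -0.59) over all cells and 0.16 (-0.15 to 0.47) in cells chosen by the other 3. CYSTM1 had -0.81 (-1.07 to -0.54) and 0.10 (-0.26 to 0.45), and ATPAF1 -0.94 (-1.23 to -0.66) and -0.32 (-0.70 to 0.04). For each gene the interval over all cells lay below 0 and that in the chosen cells held 0.

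Genes higher in members were also compared between libraries. Over the 429 genes, the median signed log2 ratio between libraries was -0.10 in all kept cells, 0.00 in members and -0.03 in zero cells. BLVRA had -0.30 in all cells, 0.04 in members and 0.17 in zero cells, and FDFT1 -0.30, -0.09 and -0.03. Of 278 genes past that size between libraries over all kept cells, 175 passed it in the same direction in both members and zero cells, and 16 passed it in neither. The genes of the chromosome 10 stretch had medians of 0.02 in all cells, 0.12 in members and 0.15 in zero cells.

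Lists that had been chosen for their whole-library difference in these data kept it in members, which is no independent evidence. All 11 measured genes of the list lower over the whole ETV6-RUNX1 library were lower in its members, with a median log2 ratio of -1.03 in members and -1.07 in zero cells. Of 10 measured genes higher over that library, 9 were higher in members, with medians of 0.86 and 0.72. Set against zero cells, these lists had 1 and 1 higher, PTPRCAP and RAG1, and 1 and 2 lower, FAM129C, and CYB5D2 and NKAIN4. Of 4 genes that vary between cells of the line, NPY was higher in members and 0 were lower.

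MHC class II genes had the highest median between members among the lists with at least 5 measured genes that were not chosen from these data, at 0.30 in members and 0.14 in zero cells, with 3 of 13 higher with ETV6-RUNX1 and 1 lower. Pre-B receptor and proximal signalling genes had the lowest, at -0.28 and -0.16, with 8 of 18 lower and 1 higher. Adhesion and migration genes had -0.22 in members and -0.34 in zero cells, with 1 of 10 higher and 4 lower. Genes of MYC and ribosome biogenesis had -0.18 in members and -0.13 in zero cells, with 0 of 48 higher and 7 lower. Cholesterol synthesis genes had -0.16 in members and -0.07 in zero cells, with 1 of 20 higher and 4 lower. Over all genes measured in members, 5.56% were higher and 9.1% lower with ETV6-RUNX1.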

How the data were processed

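Each deposited matrix gives the UMI count of every gene in every barcode, unscaled. Cell Ranger 3.0.2 and hg19 are the tool and build in the submitters' processing notes. Of 32738 genes, 31112 had a chromosome in GENCODE release 29 (GRCh38), used only for chromosome and gene order; 30012 autosomal genes were analysed and 1626 genes with no match were left out. Kept barcodes were 2267 of 2503 (ETV6-RUNX1) and 1870 of 2203 (LUC control). No doublet caller was run.

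UMIs were summed over the cells of each group and scaled to CPM of the group's total. Ratios have exact Poisson-ratio 95% intervals and shares exact Clopper-Pearson 95% intervals. With 1 library per construct no test was made, and genes were counted by size (a log2 ratio of 0.32). Genes entered a comparison with 10 CPM in any of its groups. Phases were called with scanpy 1.11.5 on cells thinned to 8700 UMIs. Clusters used 2000 variable genes, 30 components, 15 neighbours and Leiden resolution 0.5 (leidenalg 0.10.2). TMM factors came from edgeR 4.0.16, used for scaling only. Ratios and intervals were tested on simulated Poisson counts, which leave out the spread between cells. Thinned cells were checked to hold 8700 UMIs each.

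The members, 35 gene lists and the naming rule were chosen with earlier results of these data known. Named genes were the markers, the 15 highest and 15 lowest between members and zero cells (ranked by the smaller ratio of the libraries, intervals excluding 0 in both), the 12 highest and 12 lowest between members of the libraries, and up to 3 of each list by mean ratio. Other list members, the pre-B markers and genes of the chromosome 10 stretch are named as examples chosen after their values were seen. In lists, counts are of genes past that size in both libraries, and pairs of log2 ratios are ETV6-RUNX1 then LUC control. Alternatives covered thinning, matching on depth or phase, the cell filter, the marker rule, the scaling, the expression floor, the size and the weight of cells; other windows of genes were added after the data were seen. A few genes of the lists are not reported here.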

Additional observations from a re-analysis of the deposited data

Results flagged for a closer look

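Marker UMIs were also present in barcodes that had failed the cell filter, which no comparison used. The 236 such barcodes of the ETV6-RUNX1 library held 12 UMIs of the 4 marker genes, or 32.4 CPM, against 23.8 CPM in kept cells of that library. The 333 of the LUC control library held 10, or 18.1 CPM, against 44.2 CPM in kept cells. Both values are above what 3 counts would give in those barcodes, 8.10 and 5.42 CPM, and 2 and 3 of the barcodes had at least 2 marker UMIs.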

How the results depend on the processing

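Members over zero cells gave 429 higher and 244 lower genes in both libraries; of these 371 and 201 were also called with cells matched on depth and 313 and 164 with cells matched on phase. Lower genes numbered 574 with totals without ribosomal protein and mitochondrially encoded genes and 393 at a floor of 5 CPM. Higher and lower genes numbered 135 and 46 at 50 CPM and 119 and 78 at 1.5-fold, by construction fewer. Under TMM the split was 313 to 323, and under median-of-ratios scaling 352 to 294. Between libraries, the members' 325 higher and 532 lower genes became 934 and 1322 after thinning, 630 and 876 at 5 CPM, 43 and 88 at 50 CPM and 58 and 118 at 1.5-fold. Higher genes alone became 503 with phases matched, 531 without TFDP1 in the rule and 746 with totals without ribosomal protein and mitochondrially encoded genes (620 lower); TMM gave 405 to 407 and median-of-ratios 383 to 435. The cause of the other moves was not tested.

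The member share was 6.36% with ETV6-RUNX1 and 11.9% in the control after thinning, 7.01% and 17.6% at 3 or more marker UMIs, 18.7% and 33.4% at 1 or more, 6.22% and 14.5% without TFDP1, 9.66% and 21.1% without GSTK1, and 10.5% and 21.4% without CYSTM1, below the control in each. In unthinned cells, markers were found in cells chosen by the other 3 in 30.1% and 39.8% (ATPAF1), 32.5% and 36.2% (CYSTM1), 44.3% and 46.6% (GSTK1), and 60.3% and 73.8% (TFDP1). Phase shares of unthinned cells that moved were G2/M 48.9% and S 38.3% in ETV6-RUNX1 zero cells, G2/M 49.8% and S 40.5% in control members, and G1 10.8%, G2/M 51.5% and S 37.7% in control zero cells. Of 1718 values of named genes over the alternatives 1638 stayed within their counting error, 79 moved and 1 reversed: CYB5D2 had a mean log2 ratio of 0.0319 after thinning. Of 420 list medians 1 reversed, that of genes lower over the whole ETV6-RUNX1 library, a list chosen from these data, at -0.00155 with phases matched. The highest chromosome 10 window stayed between 0.63 and 0.70 with ETV6-RUNX1 and between 0.63 and 0.72 in the control under the 4 alternatives added later and as reported. No paired analysis was possible because each construct had 1 library.

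The depth of members limits genes near 10 CPM, whose ratios rest on few UMIs.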

Other observations

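IGJ, the joining chain of secreted immunoglobulin, was under the expression floor and was chosen after its values were seen. It had 0 UMIs in the 277 ETV6-RUNX1 members, where 3 counts would be 0.582 CPM, against 160 UMIs (4.42 CPM) in zero cells. In the control it had 1 UMI in 464 members, against 93 UMIs (3.18 CPM) in zero cells. In ETV6-RUNX1 zero cells the transcript was in 98 of 1843 cells (5.32%, 4.34 to 6.44), with at most 15 UMIs in a cell. In control zero cells it was in 65 of 1246 (5.22%, 4.05 to 6.60), with at most 6. Cells with 1 marker UMI had IGJ in 1.36% (0.165 to 4.83) with ETV6-RUNX1 and in 3.75% (1.39 to 7.98) in the control.

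Outside the stretch from NSUN6 to CUL2, 21 of the other 224 measured genes of chromosome 10 were higher in both libraries. Lower in both were 13 genes of the chromosome, with 0 of them in the stretch. Over all measured genes, 7.08% were higher and 4.03% lower. C10orf10, ZNF32 and PTPLA are examples of genes outside it that passed 0.32 on the log2 scale, up or down, in both libraries. C10orf10 had log2 ratios of 1.48 with ETV6-RUNX1 and 1.19 in the control, ZNF32 0.57 and 0.76, and PTPLA -0.90 and -0.65. Within the stretch, PIP4K2A, MSRB2, WAC-AS1 and MTPAP were the 4 genes that did not reach it in both, with ratios of 0.46 and 0.28, 0.30 and 0.24, 0.29 and 0.15, and 0.30 and 0.55.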
